A study of Mus musculus with 9 samples.

Results

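Tnrc18 was 1 of 9803 genes in a table of transcript signals from mouse amygdala, and it was chosen by its array signals: it had the largest moderated limma statistic (difference over error) for higher signal after chronic social defeat. A single array entry, or probe set, carried its symbol, and that entry supplied every value given for the gene. Because the gene was picked for its difference between defeated and control mice, that difference is described here without a test. The gene spans chromosome 5, positions 142724602 to 142823668, on the minus strand of GRCm38.p6 in the RefSeq gene table, a length of 99067 bases.

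The RNA had been recovered by immunoprecipitating Ago2, an Argonaute protein loaded with microRNAs and bound to the transcripts they target, from amygdala of male C57BL/6J mice aged 10 weeks when they entered the protocol. There were 3 arrays from susceptible and 3 from resilient mice, both collected 8 days after defeat had ended, and 3 from control mice without defeat (numbered 1, 2 and 4). The labels name neither the criterion for susceptibility nor separate animals behind the arrays, so the spread between arrays may be technical. Signals came from an Affymetrix whole-transcript array and are on the log2 scale after RMA, a procedure that corrects background, equalises arrays and summarises probes, so a difference of 1 is a 2-fold change in signal. The amount of a transcript, its binding to Ago2 and carry-over in the precipitate cannot be told apart, since neither total RNA nor a control precipitate was analysed here. The number of arrays limits the precision.

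Tnrc18 encodes a very large nuclear protein. Its bromo-adjacent homology (BAH) domain binds H3K9me3, the histone mark of silent heterochromatin, and in human cells the protein recruits histone deacetylase corepressor complexes and keeps endogenous retroviral elements silent. Its name comes from a trinucleotide repeat in the transcript, and it is not a member of the GW182 family (Tnrc6a, Tnrc6b and Tnrc6c), the scaffold proteins that bind Argonaute and silence microRNA targets.

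The 250 bases before the RefSeq transcription start listed for Tnrc18 are printed because the genes with the most similar profile, given further on, were searched for the same motifs. Capitals mark matches to the GC box (GGGCGG) and, on the opposite strand, the TATA box (TATAAA).
Tnrc18 promoter, GRCm38.p6 chr5:142817663-142817912, minus strand: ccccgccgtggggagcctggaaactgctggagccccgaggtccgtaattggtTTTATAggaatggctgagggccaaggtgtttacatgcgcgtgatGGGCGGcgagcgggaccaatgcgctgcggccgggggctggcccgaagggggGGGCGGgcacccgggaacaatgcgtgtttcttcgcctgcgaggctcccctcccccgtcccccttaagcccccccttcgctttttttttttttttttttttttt
This start lies 6006 bases inside the outer end of the annotated gene. The stretch was 61.6% G and C and held 20 CpG dinucleotides, against medians of 52.4% and 6 over 32851 RefSeq promoters of the same length, and it ended in a run of 24 T. Both strands were searched. The GC box matched at 2 places and is present in 32.7% of all promoters, and the TATA box matched at 1 place and is present in 12.4%. No match was found for the short glucocorticoid receptor motif TGTTCT (16.1% of promoters), the full glucocorticoid response element (0.00913%), the cyclic AMP response element TGACGTCA (1.55%) or the E-box CACGTG (6.02%). The full element contains the short motif.

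Tnrc18 signal was highest in susceptible, intermediate in resilient and lowest in control mice. The susceptible arrays read 9.38, 9.33 and 9.39, the resilient arrays 9.15, 9.27 and 9.23, and the control arrays 8.93, 8.89 and 8.94. No array of any group fell within the range of another group. The lowest resilient array stood 0.21 above the highest control array, and the lowest susceptible array stood 0.06 above the highest resilient array.

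Group means were 9.37 ± 0.03 in susceptible, 9.22 ± 0.06 in resilient and 8.92 ± 0.03 in control mice (SD, n = 3 each). The defeated groups together, at a mean of 9.29, lay 0.37 (SE 0.036) above controls, or 1.29-fold. Taken apart, susceptible mice were 0.45 (SE 0.041) above controls, or 1.36-fold, and resilient mice 0.30 (SE 0.041), or 1.23-fold. These 2 comparisons share the control arrays. All 6 defeated arrays lay above all controls in 10.9% of the 9803 genes, and for Tnrc18 this separation follows from how it was chosen. The 3 groups lay apart in the order susceptible, resilient, control in 106 genes, or 1.08%.

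**Figure D1:**
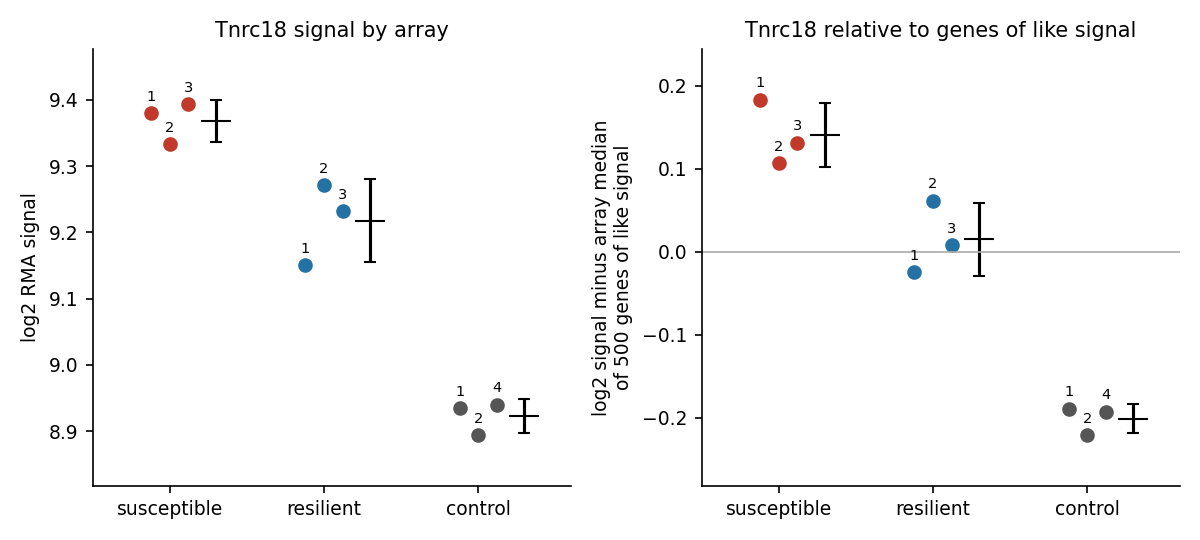
Tnrc18 by array, as log2 RMA signal (left) and after subtracting each array's median over 500 genes of like signal (right). Points are arrays with their replicate number, and bars are the group mean and SD (n = 3). The susceptible arrays, at 9.33 to 9.39, lie above the resilient arrays, at 9.15 to 9.27, and the control arrays, at 8.89 to 8.94, lie lowest in both panels.

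The difference between the defeated groups had not been used to choose the gene, although the small spread within groups had. Tnrc18 was 0.15 (SE 0.041) higher in susceptible than in resilient mice, or 1.11-fold, with a 95% interval of 0.06 to 0.24 on the log2 scale. The interval rests on that spread and is likely too narrow. limma's adjusted p was 0.411 over all genes, so the difference did not pass the test. Its unadjusted p was 0.00495 by limma, a value that 66 genes (0.673%) reached or went below. The two-sided exact permutation p was 0.1, and no smaller value is possible with 3 arrays in each group. At an adjusted p under 0.05 limma called 0 genes (0%) between susceptible and resilient mice, and 1158 (11.8%) had an unadjusted p under 0.05. All 3 susceptible arrays lay above all 3 resilient arrays in 8.35% of genes. The authors' table lacks genes that differed little between the groups, which raises such shares. They therefore do not show an excess of differences between susceptible and resilient mice.

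Tnrc18 lay in a part of the signal range where most genes were higher in defeated mice. The 500 genes nearest to it in mean signal, at means of 8.96 to 9.38, had a median difference of 0.10 between defeated and control mice, and 405 of them (81.0%) were higher. Over all 9803 genes the median was 0.04 and 58.6% were higher. With genes divided by mean signal into 5 equal classes, from lowest to highest, the median difference was -0.04, -0.02, 0.07, 0.09 and 0.05. In each array Tnrc18 was therefore also set against the median of those 500 genes.

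Relative to that median Tnrc18 was at 0.18, 0.11 and 0.13 in susceptible arrays, at -0.02, 0.06 and 0.01 in resilient arrays, and at -0.19, -0.22 and -0.19 in control arrays. The gene was above that median in every susceptible array, close to it in resilient arrays and below it in every control array. The genes behind the median were picked by nearness to Tnrc18 in mean signal over all arrays. Values above and below it therefore roughly balance by construction. Their signs cannot show whether the gene was high in susceptible or low in control mice, and only differences between groups can be read. On this scale defeated mice lay 0.28 (SE 0.035) above controls, compared with 0.37 as deposited. It was 0.34 (SE 0.041) for susceptible and 0.22 (SE 0.041) for resilient mice against controls.

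The genes immediately next to Tnrc18 in signal differed less between groups, as most genes did. The 3 just above were Wscd2, Sec24d, which encodes a coat protein of vesicles leaving the endoplasmic reticulum, and the chaperone gene Dnajc11. Their differences between defeated and control mice were 0.18 (SE 0.058), 0.20 (SE 0.070) and 0.05 (SE 0.032). The 3 just below were Tut1, which encodes a nucleotidyl transferase of RNA ends, the inositol phosphatase gene Inpp1, and Stra13. Their differences were 0.04 (SE 0.036), 0.05 (SE 0.034) and 0.13 (SE 0.063). limma called none of the 6 at an adjusted p under 0.05, where 1.29% of all genes were called. In none were the 3 groups apart in the order seen for Tnrc18, which 7 of the 500 genes showed. At such shares 6 genes could well hold none. All defeated arrays lay above all controls in 2 of the 6, Dnajc11 and Stra13, and in 87 of the 500 (17.4%).

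Among the 500 genes, 5 had a larger difference between defeated and control mice than Tnrc18. Named after their values were seen, these were the developmental receptor gene Notch2 (0.43, SE 0.11), the transcription factor gene Otx2 (0.38, SE 0.22), Pdzd2 (0.39, SE 0.072), the sulfate transporter gene Slc13a4 (0.37, SE 0.17) and the bicarbonate transporter gene Slc4a5 (0.49, SE 0.23). Their pooled SD within groups was 0.12 for Pdzd2, 0.19 for Notch2, 0.29 for Slc13a4, 0.38 for Otx2 and 0.41 for Slc4a5, against 0.04 for Tnrc18. The median pooled SD of the 500 genes was 0.07, and 73 of them had a smaller one than Tnrc18. Otx2 ranged from 9.27 to 9.97 in susceptible, from 8.58 to 9.34 in resilient and from 8.57 to 9.28 in control mice, so that its groups overlapped where those of Tnrc18 did not. Pdzd2, by contrast, had every defeated array above every control, as did 17.4% of the 500 genes. Its lowest defeated array stood 0.17 above its highest control, against 0.21 for Tnrc18, while its susceptible and resilient arrays overlapped.

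**Figure D2:**
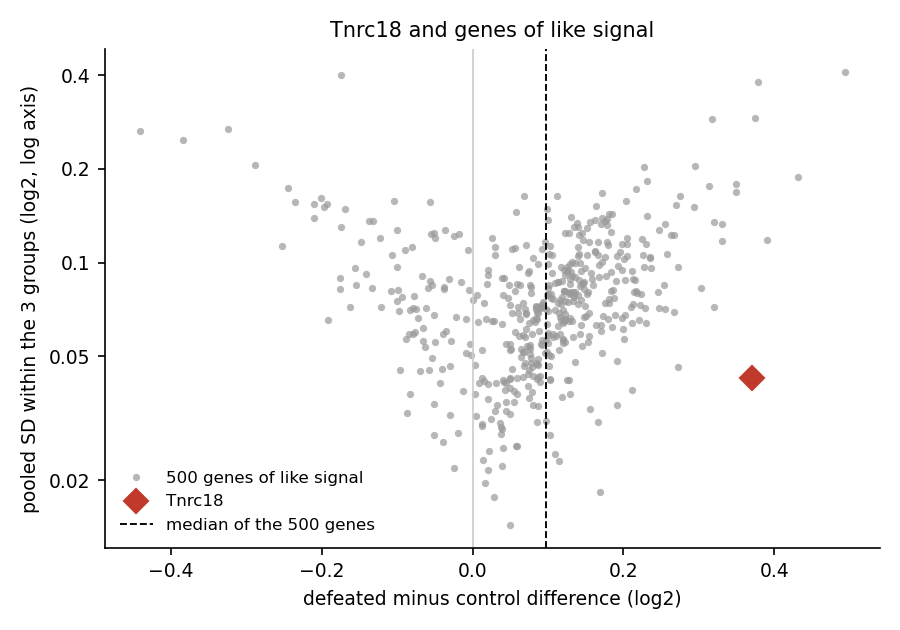
Difference between defeated and control mice (horizontal, log2) against the pooled SD within the 3 groups (vertical, log2 units on a log axis) for Tnrc18 and the 500 genes nearest to it in mean signal. Tnrc18 combines a difference of 0.37 with a pooled SD of 0.04, and the median difference of the 500 genes is 0.10. The authors' table lacks most genes that differed little for their spread, which thins the upper middle of the plot.

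What set Tnrc18 apart in the whole table was the ratio of difference to spread, more than the size of the difference. It ranked first of 9803 genes by the moderated limma statistic between defeated and control mice, and it was first too when each defeated group was set against controls alone. By the difference alone it ranked 50th among increases, and by pooled SD it ranked 1887th from the smallest. By the gap between the lowest defeated and the highest control array it ranked 2nd. The larger gap was that of the vomeronasal receptor gene Vmn1r103, named after its values were seen, whose signal was low, at 5.93 ± 0.21 in susceptible, 5.83 ± 0.05 in resilient and 5.24 ± 0.24 in control mice (SD, n = 3 each). These ranks describe the values that chose the gene.

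The 5 genes that followed it in the order of the limma statistic had smaller differences, from 0.26 to 0.35. They were Ifi30, which encodes a lysosomal thiol reductase (0.35, SE 0.045), Zcchc14, which encodes a zinc knuckle protein that binds RNA (0.27, SE 0.036), the rhomboid family gene Rhbdl3 (0.27, SE 0.037), the ribosome biogenesis gene Pdcd11 (0.26, SE 0.036) and the prenyltransferase subunit gene Pggt1b (0.31, SE 0.044). Pggt1b went the other way between the defeated groups, at 8.14 in each susceptible array, 8.30, 8.26 and 8.16 in resilient arrays, and 7.94, 7.79 and 7.91 in control arrays. Ifi30 had the same order of group means as Tnrc18, at 8.94 in susceptible, 8.79 in resilient and 8.52 in control mice.

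The profile of Tnrc18 over the 9 arrays was compared with that of every other gene by the root mean square difference of log2 values after each gene's own mean was subtracted. Tnrc18 itself varied around its mean by 0.19 on this scale, and the median distance of all genes from it was 0.18. The nearest were Slc37a1, a sugar phosphate transporter gene of the endoplasmic reticulum (distance 0.059), Pxdn, which encodes a peroxidase of the extracellular matrix (0.059), Zcchc14 (0.060), the zinc finger gene Zfp516 (0.062), the growth factor receptor gene Igf1r (0.064), the cytoskeletal linker gene Plec (0.064), the histone demethylase gene Kdm6b (0.065), the glucocorticoid-induced co-chaperone gene Fkbp5 (0.066), and Ltbp3, which encodes a binding protein of latent TGF-beta (0.066). These are 9 of the 10 nearest genes.

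All 10 nearest genes had every defeated array above every control, as follows from likeness to Tnrc18, and in 4 of the 10 the 3 groups also lay apart in the same order. Fkbp5 read 8.64, 8.81 and 8.78 in susceptible arrays, 8.51, 8.74 and 8.70 in resilient arrays, and 8.30, 8.29 and 8.35 in control arrays. Unlike Tnrc18, its susceptible and resilient arrays overlapped. Pearson's r with Tnrc18 was 0.94 to 0.97 for the 10 genes over the 9 arrays, a description over points that share their groups. Ranked by r instead, only Zcchc14 stayed among the 10, since r takes no account of the size of a difference, and the highest r was 0.98 for Ankrd52, whose difference between defeated and control mice was 0.22.

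The profiles nearest to the mirror image of Tnrc18 were those of Fam163a (distance 0.074), the GPI anchor synthesis gene Pigp (0.074), LOC635992 (0.077), Filip1l (0.079) and Gm7985 (0.080). Fam163a read 8.42, 8.51 and 8.51 in susceptible arrays, 8.56, 8.48 and 8.56 in resilient arrays, and 8.73, 8.77 and 8.79 in control arrays, with all controls above all defeated arrays. The 10 genes of nearest profile had a median annotated length of 70.7 kb. It was 30.4 kb for the 495 of 500 genes of like signal with a length and 18.5 kb for 9405 of all genes. Of the 5 mirrored genes 4 had a length: 219528 bases for Filip1l, 129498 for Fam163a, 12253 for Pigp and 1204 for Gm7985. The 10 genes ranked highest by r instead had lengths of 8723 to 118393 bases, with middle values of 29957 and 39613. The greater length thus depended on the ranking used. A promoter sequence was found for 6 of the 10 genes of nearest profile, and the GC box was present in 4 of these 6, the E-box in 1 and the other motifs in 0.

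**Figure D3:**
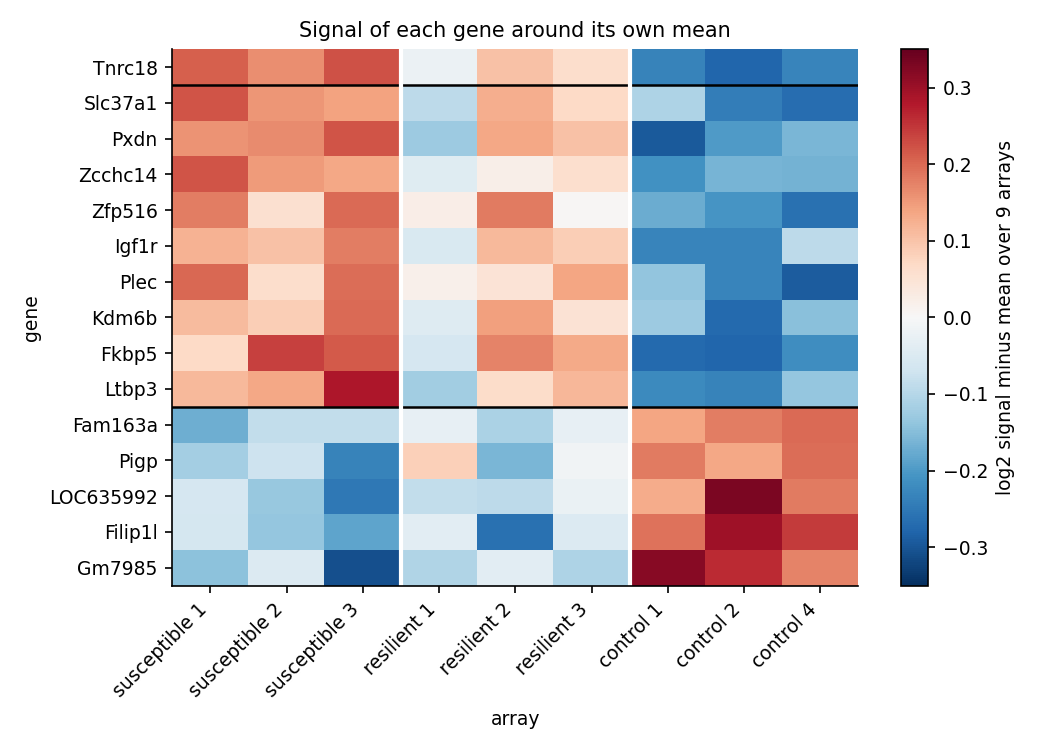
Log2 signal around each gene's own mean over 9 arrays (colour) for Tnrc18 (top row), 9 genes of nearest profile and the 5 genes nearest to its mirror image (bottom rows), with arrays in columns by group. Resilient 1 is the palest of the defeated arrays for Tnrc18, at 9.15 on the log2 scale, and control arrays take the opposite colour from susceptible arrays in each row.

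Genes related to Tnrc18 by function had smaller differences than Tnrc18 itself. This says little about them, since Tnrc18 was chosen for its difference over error and only 49 of 9803 genes had a larger increase. limma called 126 of the 9803 genes (1.29%) between defeated and control mice at an adjusted p under 0.05, of which 99 were higher (1.01%). The count depended on which arrays were included: it was 1333 without susceptible 1, 430 without resilient 1, 9 without control 4, and 0 without any single one of the other 6 arrays. It was also 0 with an allowance for the selection of the table, a replicate block or a choroid plexus covariate.

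Of 11 genes listed for a BAH domain, 8 were in the table, and all 8 were higher in defeated mice, with a median difference of 0.14. The 1 called was Trerf1 (0.17, SE 0.032, limma adjusted p = 0.0448), which read 9.09, 9.16 and 9.11 in susceptible arrays, 9.12, 9.13 and 9.07 in resilient arrays, and 8.93, 8.95 and 8.96 in control arrays. Trerf1 encodes a zinc finger regulator with ELM2 and SANT domains, and is not known for a BAH domain. Without it 7 of 7 were higher, with a median of 0.13 and 0 called. Over all genes 58.6% were higher, and 65.4%, 79.4% and 67.1% in signal classes 3, 4 and 5, counted from the lowest. With so few genes, such counts do not set the list apart. Bahcc1, a paralogue of Tnrc18 with a BAH domain, named after its values were seen, read 8.28, 8.05 and 8.19 in susceptible arrays, 8.08, 8.05 and 8.05 in resilient arrays, and 7.89, 7.83 and 7.98 in control arrays. All defeated arrays of Bahcc1 lay above its controls, as in 10.9% of all genes. Its difference of 0.22 (SE 0.053) had a limma adjusted p of 0.0605.

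Of 24 genes of histone deacetylase corepressor complexes, 8 were in the table, 6 of them higher (58.6% of all genes were) and 2 lower in defeated mice. Their median difference was 0.06 as deposited and -0.017 after quantile normalisation.

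The 25 genes that write, read or erase H3K9 methylation or maintain heterochromatin had 15 members in the table. Of these 12 were higher (58.6% of all genes were) and 3 lower, the median was 0.08, and limma called 0. The members of highest signal were Atf7ip, a partner of the methyltransferase Setdb1 (0.08, SE 0.035), the heterochromatin protein genes Cbx5 (-0.05, SE 0.036) and Cbx3 (-0.07, SE 0.048), and the chromatin remodeller gene Atrx (0.08, SE 0.043). All 3 GW182 genes were in the table and higher (58.6% of all genes were), with a median of 0.17. Of these Tnrc6c was called (0.24, SE 0.046, limma adjusted p = 0.0471), while Tnrc6a had a difference of 0.17 (SE 0.045) and Tnrc6b of 0.11 (SE 0.036). Ago2, the precipitated protein's own gene, had a difference of 0.15 (SE 0.058).

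Of the 5 protein-coding genes on either side of Tnrc18 on chromosome 5, 5 of the 10 were in the table. All 5 were higher in defeated mice (58.6% of all genes were), with a median of 0.13 and 0 called by limma. They were the monoamine transporter gene Slc29a4 (0.13, SE 0.097), the F-box gene Fbxl18 (0.14, SE 0.050), the actin gene Actb (0.02, SE 0.029), the ubiquitin ligase gene Rnf216 (0.11, SE 0.045) and the zinc finger gene Rbak (0.13, SE 0.042). Fbxl18, the nearest on the upstream side, read 9.17, 9.14 and 9.11 in susceptible arrays, 8.92, 9.01 and 9.11 in resilient arrays, and 8.91, 8.87 and 9.03 in control arrays, and its resilient and control arrays overlapped. Slc29a4, on the other side, read 10.53, 10.55 and 10.76 in susceptible arrays, 10.10, 10.57 and 10.46 in resilient arrays, and 10.34, 10.32 and 10.43 in control arrays, and all of its groups overlapped except susceptible and control.

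**Figure D4:**
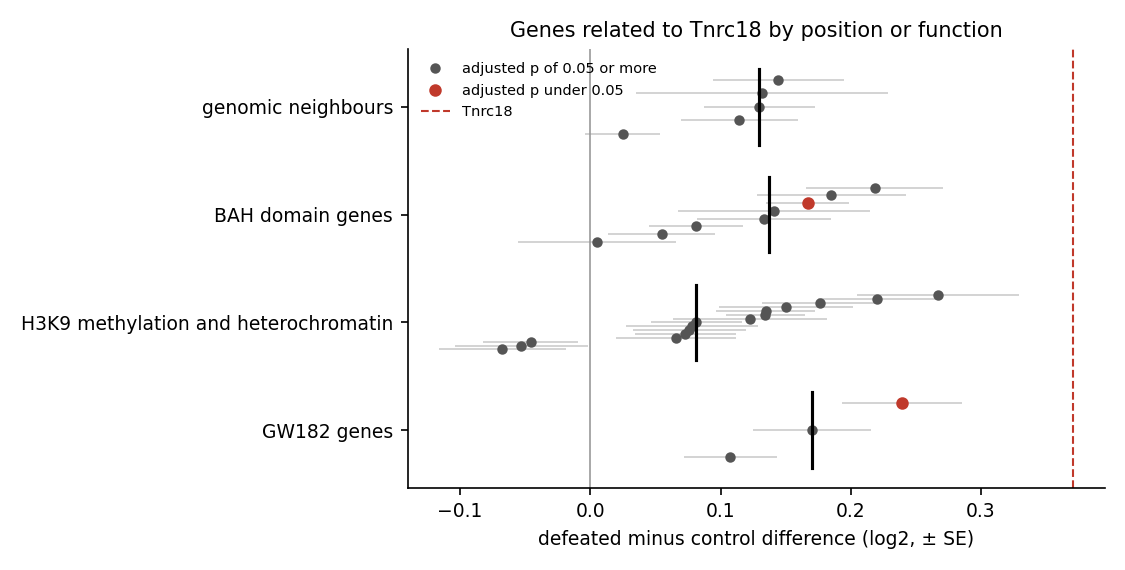
Difference between defeated and control mice (log2, ± SE) for genes near Tnrc18 in the genome or linked to it by function, 1 row for each of 4 lists, with vertical bars at list medians and the dashed line at the 0.37 of Tnrc18. Red points had a limma adjusted p under 0.05 (Trerf1 and Tnrc6c), and every member shown lies to the left of Tnrc18. Only 49 of all 9803 genes had a larger increase than Tnrc18.

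Of 20 markers of choroid plexus and ependyma 18 were in the table, and limma called 0 of them in any comparison. All 18 were higher in susceptible than in resilient and in control mice, and 17 were higher in resilient than in control mice. Their mean log2 signal was 9.31 to 9.71 in susceptible, 8.85 to 9.36 in resilient and 8.82 to 9.28 in control arrays, so that the resilient and control ranges largely overlapped. Otx2, Slc13a4 and Slc4a5, given above among genes of like signal, belong to this list. With the marker mean as a covariate the difference of Tnrc18 was 0.34 (SE 0.041) between defeated and control mice, 0.39 (SE 0.053) between susceptible and control, 0.28 (SE 0.040) between resilient and control, and 0.11 (SE 0.047) between susceptible and resilient mice. Without the covariate these differences were 0.37, 0.45, 0.30 and 0.15, in the same order. At nearly the same marker mean, resilient 1 (8.85) had a Tnrc18 signal of 9.15 and control 1 (8.82) one of 8.93. These arrays are examples only, and the part of choroid plexus content in the Tnrc18 values was not tested.

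**Figure D5:**
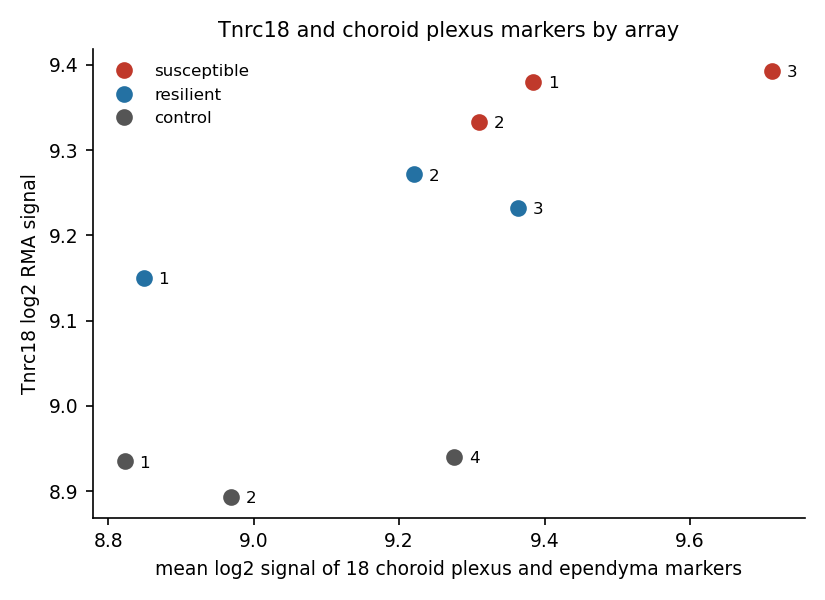
Tnrc18 log2 RMA signal (vertical) against the mean log2 signal of 18 choroid plexus and ependyma markers (horizontal), 1 point per array, labelled by replicate number. Control 4, at a marker mean of 9.28 and a Tnrc18 signal of 8.94, lies below resilient 2 (9.22 and 9.27) and susceptible 2 (9.31 and 9.33).

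Markers of other cell types were only partly in the table. All 4 of 18 oligodendrocyte markers present were lower in defeated than in control mice, with a median of -0.25 and list means of 9.21 to 9.32 in susceptible, 9.24 to 9.71 in resilient and 9.57 to 9.68 in control arrays. All 7 of 16 microglia markers present were lower, with a median of -0.14 and list means of 8.62 to 8.74 in susceptible, 8.64 to 8.86 in resilient and 8.81 to 8.92 in control arrays. The oligodendrocyte mean of resilient 1 lay above every control, and the microglia mean of resilient 1 lay within the control range. The medians were -0.02 for 3 of 11 astrocyte markers, -0.15 for 5 of 11 endothelial and mural markers, -0.04 for 5 of 12 neuronal markers and -0.05 for 3 of 20 amygdala neuron markers. Astrocyte means were 11.41 to 11.53 in susceptible, 11.47 to 11.49 in resilient and 11.41 to 11.45 in control arrays, and endothelial means were 8.37 to 8.62 in susceptible, 8.49 to 8.55 in resilient and 8.37 to 8.73 in control arrays. Neuronal means were 12.14 to 12.18 in susceptible, 12.12 to 12.18 in resilient and 12.20 to 12.23 in control arrays. Means of the 3 genes present from the amygdala neuron list (Slc17a6, Drd1 and Drd2) were 9.33 to 9.70 in susceptible, 9.69 to 10.08 in resilient and 9.59 to 9.80 in control arrays. limma called 0 of these markers between defeated and control mice. Between susceptible and control mice it called 1 astrocyte marker higher, where 181 of all 9803 genes were called higher. The part of these markers in the Tnrc18 values was not tested. Fewer cells of a type, less RNA per cell, less binding to Ago2 and less carry-over in the precipitate cannot be told apart here. With 17 of the 20 amygdala neuron markers not in the table, only Slc17a6, Drd1 and Drd2 remained. These 3 are too few to check the labelled tissue or to stand for amygdala neurons.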

How the data were processed

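The authors deposited log2 signals of 9 arrays, made with RMA, and the submitters' processing notes also name Partek. The version of neither was given in the sources used here. A second deposited table paired each probe set with a gene symbol, and its 9 value columns matched no sample label and were not used. The deposited table had been selected on the outcome. For every gene the smallest one-way analysis of variance p over the 3 groups, computed from its values, was at most 0.287. Genes that differed little are therefore missing, and adjusted p-values are too small. Shares of genes with a low unadjusted p or with groups apart are too large. An allowance divided each p by 0.287 before adjustment.

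For each of 9803 genes (11772 entries, 978 genes with several) the entry of highest mean was kept. Symbols were updated through the RefSeq table of GRCm38.p6, where 8393 were current, 1013 were replaced, 9 kept an old symbol because the new one was present and 388 had no unambiguous match. limma (3.58.1, R 4.3.3; lmFit, contrasts.fit, eBayes) fitted a mean per group to all 9 arrays, two-sided, with Benjamini-Hochberg adjustment over all genes. It was tested on simulated data. Errors of differences are limma's SE. Genes of like signal were the 500 nearest in mean signal, and named genes were Tnrc18, 3 on either side of it in signal, 5 after it in the order of the statistic, the 10 nearest and 5 mirrored profiles, its neighbours in the genome, and called members of each list or otherwise the 4 of highest signal. Tnrc18, the gene lists and the motifs were chosen with earlier results of these data known. A result for 1 gene that these rules name is not reported here. Alternatives were other scalings, filters, entries, variance priors and weights, a replicate block, a choroid plexus covariate and each array left out. Tables and figures were made with matplotlib 3.10.9, scipy 1.17.1, numpy 2.4.6 and pandas 2.3.3 under Python 3.11.15.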

Additional observations from a re-analysis of the deposited data

How the results depend on the processing

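The difference of Tnrc18 between defeated and control mice was 0.32 with arrays shifted to one median, 0.30 after quantile normalisation and 0.28 relative to genes of like signal, a scale chosen after seeing the data, and 0.36 to 0.39 with each array left out in turn. In susceptible mice against controls it was 0.38, 0.36 and 0.34 on those scales, 0.39 with the choroid plexus covariate, and 0.43 to 0.46 with arrays left out. In resilient mice against controls it was 0.24 after quantile normalisation, 0.22 relative to genes of like signal, and 0.27 to 0.33 with arrays left out. Between susceptible and resilient mice it was 0.11 to 0.18 over 20 alternatives, with limma adjusted p-values of 0.115 to 1, and with arrays left out it was 0.12 to 0.18. No alternative turned the direction of any of these differences.

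The count of genes called by limma between defeated and control mice, 126, was 3 after quantile normalisation, 0 with the replicate block, the choroid plexus covariate or the allowance for selection, 2084 with array weights, 236 with a trended and robust prior, 310 for genes with a mean signal of at least 6, 75 over all entries, and 0 to 1333 with arrays left out (1333 without susceptible 1, 430 without resilient 1 and 9 without control 4). With arrays shifted to one median it was 164, of which 42 were higher, against 99 of 126 as deposited. Between susceptible and resilient mice the count was 0 to 6 with arrays left out, and the 6 arose without susceptible 1. For the corepressor list a common array median gave a list median of 0.015 and quantile normalisation one of -0.017, and that of the BAH list was 0.074 after quantile normalisation. The causes were not tested.

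Of the 10 genes of nearest profile, 5 remained after quantile normalisation. Among the 200 genes nearest in signal 2 had a larger difference than Tnrc18, the same share as 5 among 500, and among 1000 genes there were 6. Tnrc18 ranked 2nd by the limma statistic among increases without susceptible 1, control 1 or control 4. The labels do not say whether the replicate numbers pair the arrays. Deviations of same-numbered arrays correlated between -0.08 and 0.25 over 7 pairs, and 3 of 6 defeated arrays correlated best with their own number. With so few arrays this cannot decide whether they were paired. With the replicate block Tnrc18 ranked 11th among increases by the limma statistic, and its difference was 0.37 between defeated and control mice and 0.15 between susceptible and resilient mice (limma adjusted p = 0.368). Number 4 occurs only among controls, so with the block control 4 adds nothing to the differences from controls. The block also leaves less of the data to estimate the spread, which bears on the 0 genes called with it.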
